A study of Xenopus laevis with 2 samples.

Results

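The SALL and ZIC genes encode transcription factors with C2H2 zinc fingers. All gene models named SALL1, SALL2, SALL3, SALL4, ZIC1, ZIC2, ZIC4 or ZIC5 were taken by symbol from an RNA-seq table of Xenopus laevis animal caps. These 8 symbols held 14 of the 24364 gene models in the table, 7 named SALL and 7 named ZIC, and no model was named ZIC4. Animal caps are explants of prospective ectoderm from the top of the embryo. Here they expressed exogenous xnr2, which encodes a Nodal signal, after RNA injection at early cleavage. Caps were cut at stage 10 and cultured until stage 14, the neural plate stage, and 10 explants were pooled per RNA extraction. The 2 libraries, numbered 3 and 1 in the labels, form 1 group, so that every level given is a level in xnr2 caps and not a response to xnr2. No label ties the libraries to different clutches. Their spread may therefore be technical, and every p-value compares these libraries and no conditions.

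SALL proteins are the vertebrate relatives of Drosophila Spalt. In mammals a short motif at their N terminus recruits the NuRD complex, a histone deacetylase and chromatin remodelling corepressor. SALL1 is needed for kidney development in mammals, and SALL4 is known from mammalian pluripotent cells and limb development. In Xenopus, sall1 and sall4 act in the neural plate, where they repress pou5f3 genes. ZIC proteins are relatives of Drosophila Odd-paired and share a block of zinc fingers with the GLI factors of Hedgehog signalling. In Xenopus they are best known from the neural plate, its border and the neural crest, and vertebrate ZIC genes lie in pairs with their starts facing each other.

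Library 3 held 29238297 and library 1 held 25880104 exon reads. The libraries were not copies of each other, with a chi-square of 45.6 per degree of freedom over 18820 models. Their ranking of all models by level was still close, with a Spearman coefficient of 0.982. Levels are in CPM, the reads of a model scaled to the exon reads of its library (1 read is 0.0342 CPM in library 3 and 0.0386 CPM in library 1), and levels per length in CPM per kilobase of exon. Summed epidermal markers were far apart between the libraries, with 5 symbols at 90.8 CPM in library 3 and 353 CPM in library 1. KRT19 (77.8 and 270 CPM in libraries 3 and 1), KRT12 (8.07 and 48.3 CPM) and ITLN1 (0.718 and 30.4 CPM) carried this gap. TFAP2A had 1.92 CPM in library 3 and 2.94 CPM in library 1. TP63 went the other way, at 2.29 CPM in library 3 and 1.66 CPM in library 1. Markers of paraxial mesoderm and muscle summed to 13428 CPM in library 3 and 12275 CPM in library 1, well above the epidermal sum in both. In bulk samples, fewer cells of a type and less RNA per cell cannot be told apart.

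As a sum, the SALL models were far more abundant than the ZIC1, ZIC2 and ZIC5 models. The 7 SALL models summed to 584 CPM in library 3 and 530 CPM in library 1 (557 ± 37.7, SD, n = 2), and the 7 ZIC models to 29.3 CPM in library 3 and 15.0 CPM in library 1 (22.2 ± 10.1). Per length the sums were 112.5 ± 6.38 for SALL and 7.40 ± 3.58 CPM per kilobase for ZIC. SALL1 and SALL4, with means of 469 and 70.5 CPM, carried this gap. It did not hold for every SALL model. Per length ZIC2 on 2L (3.18) lay above both SALL3 copies (2.10 and 1.37) and SALL2 (0.0370). Of the 14 models, 9 reached 1 CPM in both libraries, against 62.8% of all models in the table. These were 6 of 7 SALL models and 3 of 7 ZIC models.

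SALL1 carried most of the SALL signal, 86.0% of it in library 3 and 82.2% in library 1. Its L copy (chromosome 4L, 40709978 to 40729252, plus strand, assembly version 9.1) had 351 CPM in library 3 and 319 CPM in library 1. Its S copy (4S, 31152085 to 31170584, plus strand) had 152 CPM in library 3 and 117 CPM in library 1. Each copy was thus within a factor of 1.5 between the libraries, and the copies did not overlap each other in level. Of all models in the table, 97.9% had a lower mean CPM than the L copy and 94.1% a lower mean than the S copy. Per length, with exons of 5293 bp on 4L and 5180 bp on 4S, the shares were 94.1% for the L copy and 87.3% for the S copy.

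SALL4 came next. Its L copy (9_10L, 11500322 to 11511261, minus strand) had 34.3 CPM in library 3 and 27.0 CPM in library 1, and its S copy (9_10S, 10339895 to 10350755, minus strand) had 30.6 CPM in library 3 and 49.2 CPM in library 1. The copies moved in opposite directions between the libraries. SALL3, a close relative of SALL1, was lower. Its L copy (6L, 96696962 to 96714371, minus strand) had 9.68 CPM in library 3 and 12.2 CPM in library 1, and its S copy (6S, 76078685 to 76095926, minus strand) had 6.81 CPM in library 3 and 5.95 CPM in library 1. SALL2, a more distant member known from eye development in mammals, was nearly silent. Its only model (1L, 140986678 to 140999851, plus strand) had 5 reads in library 3 and 7 in library 1. Its level was 0.171 CPM in library 3 (95% exact binomial interval 0.0555 to 0.399) and 0.270 CPM in library 1 (0.109 to 0.557). Such intervals hold counting error alone, as each is taken from the reads of 1 library. No molecular identifiers were used in counting.

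ZIC2, a neural plate factor whose human gene is mutated in holoprosencephaly, was the highest of these ZIC genes. Its L copy (2L, 119944650 to 119949473, minus strand) had 13.6 CPM in library 3 and 8.23 CPM in library 1. Its S copy (2S, 102404103 to 102408056, minus strand) had 2.74 CPM in library 3 and 1.82 CPM in library 1. Both copies were higher in library 3, and the L copy lay above the S copy in each library.

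ZIC1, which in Xenopus specifies neural crest together with Pax3, was named on 3 models. The model on 5L on the plus strand (119298745 to 119303170) had 197 reads in library 3 and 86 in library 1, or 6.74 and 3.32 CPM. The model on 5S (102520768 to 102525263, plus strand) had 159 reads in library 3 and 25 in library 1, or 5.44 and 0.966 CPM. The other model on 5L, on the minus strand (119280875 to 119286702), had only 15 reads in library 3 and 9 in library 1. All of them were higher in library 3 by value, and the 5S model showed the widest gap between the libraries of any SALL or ZIC model.

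ZIC5, the partner of ZIC2 in the genome, was at the edge of detection. Its L copy (2L, 119963129 to 119969790, plus strand) had 5 reads in library 3 and 4 in library 1, and its S copy (2S, 102417953 to 102423187, plus strand) had 2 reads in library 3 and 4 in library 1. For comparison, the limit that a count of 0 allows (3 reads) was at 0.103 CPM for library 3 and 0.116 CPM for library 1. The L copy stood just above that limit at 0.163 ± 0.0116 CPM (SD, n = 2). The S copy averaged 0.111 ± 0.0609 CPM. It was below that limit by value in library 3, at 0.0684 CPM, though from 2 reads and not from a count of 0. Their levels were not distinguishable at this depth.

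**Figure D1:**
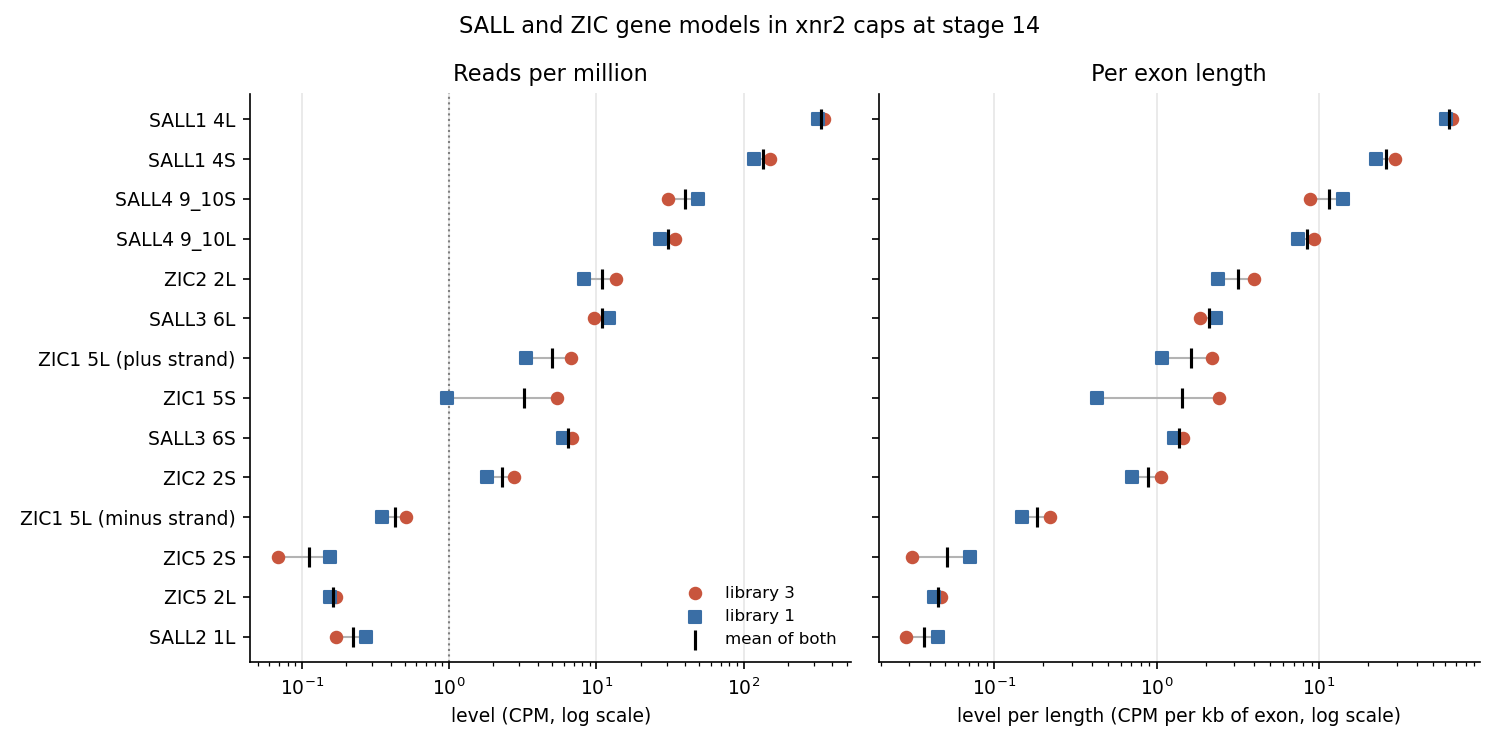
Levels of the 14 SALL and ZIC gene models in CPM (left, log axis, with a dotted line at 1 CPM) and in CPM per kilobase of exon (right, log axis), with circles for library 3, squares for library 1 and a black bar for their mean. The SALL1 copies stand at the top in both scales, ZIC1 on 5S has the widest span, and both ZIC5 copies and SALL2 lie below 1 CPM in each library.

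Ordered by level per length, SALL1 on 4L led at 63.3 ± 4.20 CPM per kilobase, followed by SALL1 on 4S at 25.9 ± 4.78, SALL4 on 9_10S at 11.5 ± 3.77 and SALL4 on 9_10L at 8.37 ± 1.40 (SD, n = 2). The library values of both SALL4 copies overlapped, while the SALL1 copies stood apart from each other and from SALL4. ZIC2 on 2L was next at 3.18 ± 1.11 and lay apart from SALL4 and SALL3. SALL3 on 6L (2.10 ± 0.338), ZIC1 on 5L on the plus strand (1.63 ± 0.782), ZIC1 on 5S (1.43 ± 1.41) and SALL3 on 6S (1.37 ± 0.130) overlapped in turn. The order of neighbours among them is not resolved by 2 libraries. The SALL3 copies did not overlap each other, with at least 1.86 on 6L and at most 1.46 on 6S. ZIC1 on 5S spanned 0.430 to 2.42 and reached into the values of both ZIC2 copies as well. ZIC2 on 2S (0.882 ± 0.252) and the minus strand ZIC1 model (0.185 ± 0.0501) followed, and their values did not overlap. The ZIC5 copies and SALL2 closed the order at 0.0510, 0.0451 and 0.0370 CPM per kilobase, and their library values overlapped. The median over all models was 1.91.

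Of the 7 ZIC models, all but ZIC1 on 5S lay in head-to-head pairs on 3 chromosomes, and in each pair only 1 model reached 1 CPM in both libraries. On 2L the starts of ZIC2 and ZIC5 were 13.7 kb apart, and on 2S they were 9.90 kb apart. Per length ZIC2 stood 70.6 times as high as ZIC5 on 2L and 17.3 times on 2S, from 9 and 6 ZIC5 reads in both libraries together. On 5L the starts of both models named ZIC1 were 12043 bp apart, and the plus strand model stood 8.82 times as high per length as the minus strand model. RefSeq, on assembly version 10.1 of this genome, lists zic4.L directly beside zic1.L on 5L and zic4.S directly beside zic1.S on 5S. Whether the minus strand model is zic4.L was not tested, because the files name it ZIC1 and carry no coordinates of that assembly. Of 15 RefSeq genes with the names of these factors, 12 had a model of the same name and chromosome in the table, and sall2.S, zic4.L and zic4.S had none.

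**Figure D2:**
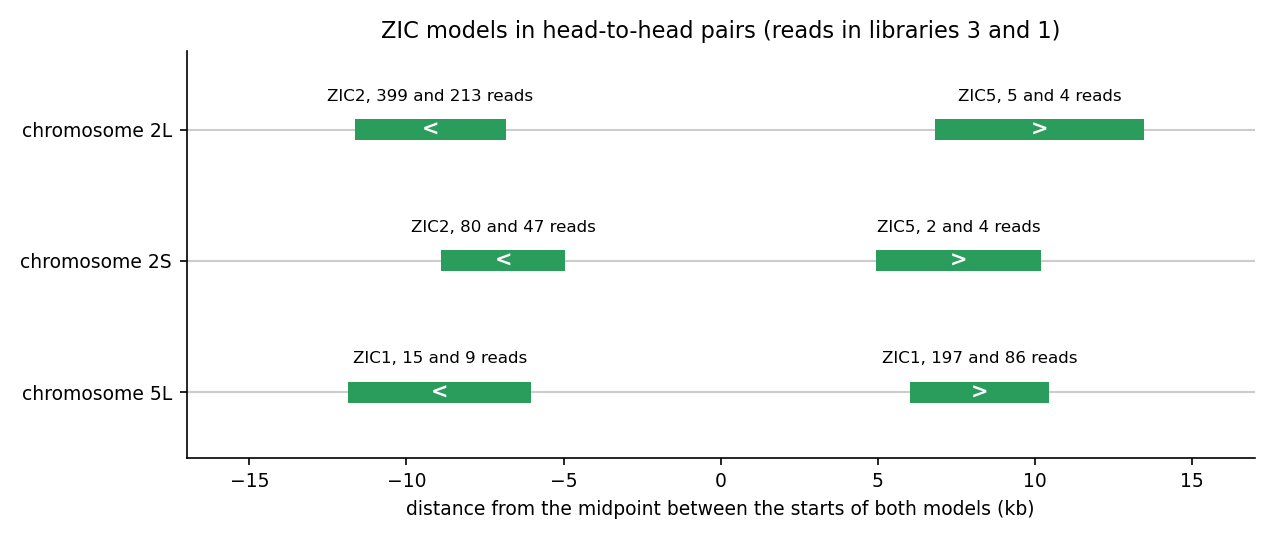
Position of the paired ZIC models on chromosomes 2L, 2S and 5L, to scale in kilobases from the midpoint between their starts, with < for the minus and > for the plus strand and the reads in libraries 3 and 1 above each bar. The members of a pair point away from each other, and one of them has few reads in each pair: 5 and 4 for ZIC5 on 2L, 2 and 4 for ZIC5 on 2S, and 15 and 9 for the minus strand ZIC1 model.

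Within 100 kb, 10 of the 14 models had another model in the table, and none overlapped one. SALL4 and SALL3 stood above their neighbours. ATP9A, which encodes a P4-type ATPase and lies on the same strand as SALL4, had 1.16 CPM in library 3 and 1.08 CPM in library 1 on 9_10L at a distance of 17.2 kb. On 9_10S it had 5.13 CPM in library 3 and 2.55 CPM in library 1 at 6.92 kb, and NFATC2, at 96.7 kb, averaged 0.355 ± 0.175 CPM (SD, n = 2). ATP9B, at 40.1 kb from SALL3 on 6L, had 0.308 CPM in library 3 and 0.502 CPM in library 1.

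SALL2 showed the opposite arrangement, with 12 reads in all beside active genes. METTL3, the RNA adenosine methyltransferase gene 13.9 kb away, had 65.9 CPM in library 3 and 69.5 CPM in library 1. CHD8, a chromatin remodeller gene, had 78.9 CPM in library 3 and 59.3 CPM in library 1, and RAB2B 22.4 CPM in library 3 and 12.2 CPM in library 1. TRDC had 0 reads. Around ZIC2 and ZIC5 on 2L, the metabolic enzyme genes PCCA and CLYBL averaged 20.6 ± 3.44 and 4.71 ± 1.54 CPM (SD, n = 2).

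The libraries were then compared to see which of these levels differed between them. A two-sided exact binomial test on reads, adjusted by the Benjamini-Hochberg method over all 18820 models with at least 10 reads, asks only whether these libraries differ beyond counting error. It called 53.1% of all models, 30.2% as higher and 22.9% as lower in library 3. All 7 SALL models and 5 of 7 ZIC models could be tested, since the ZIC5 copies had under 10 reads each. Of these 12 models, 7 were called higher in library 3, 2 lower and 3 neither, and by value 9 were higher and 3 lower. Many reads let small differences pass this test. Differences of at least 2-fold were called for 4.05% of all models upward and 4.09% downward in library 3, and among the SALL and ZIC models for 1 upward and 0 downward (8.13% of all models in either direction). At 1.5-fold, 3 SALL and ZIC models were called upward and 1 downward, against 10.4% and 8.62% of all models.

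That 1 model was ZIC1 on 5S, with a log2 ratio of library 3 over library 1 of 2.38 (adjusted p = 1.14e-20 by the exact binomial test). Among 14657 models with at least 100 reads, 30 including this one had a ratio as high or higher. ZIC1 on 5L on the plus strand had a log2 ratio of 0.998, just under the 2-fold limit (adjusted p = 7.84e-08), and of 1.02 with a pseudocount of 0.01 CPM, and the minus strand model, with 24 reads, had 0.45 and was not called (adjusted p = 0.520). ZIC2 was higher in library 3 by 0.72 on the log2 scale for its L copy (adjusted p = 7.07e-09) and by 0.57 for its S copy. The call of the S copy was marginal, with an adjusted p of 0.0493 that became 0.0573 to 0.0876 with TMM, with DESeq2 size factors or without a minimum of reads. All 5 tested ZIC models had a positive log2 ratio, with a median of 0.72, where all tested models had a median of 0.052 and a middle 50% from -0.27 to 0.36.

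SALL models showed smaller differences of mixed sign, with a median log2 ratio of 0.14. SALL1 was higher in library 3 by 0.14 for its L copy (adjusted p = 1.17e-09) and by 0.38 for its S copy (adjusted p = 7.13e-28). The reads behind these calls are many (10250 and 8260 for the L copy), so that a small difference passed the test. SALL3 on 6L was lower in library 3, with a log2 ratio of -0.33 (adjusted p = 0.0118), while its S copy (0.19, adjusted p = 0.311) and SALL2 (-0.45, adjusted p = 0.662) were not called. SALL4 on 9_10L was higher, at 0.34 (adjusted p = 5.11e-06), and SALL4 on 9_10S lower, at -0.68 (adjusted p = 8.77e-27). The ratio between the libraries also followed exon length over the whole table. In the longest of 5 classes of models (4035 to 20100 bp), which holds SALL1, SALL2 and SALL3, its median was 0.20, and taken from that median the L copy of SALL1 stood at -0.069. The part of length in these differences was not tested. The same step left ZIC1 on 5S at 2.35 and SALL4 on 9_10S at -0.80.

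**Figure D3:**
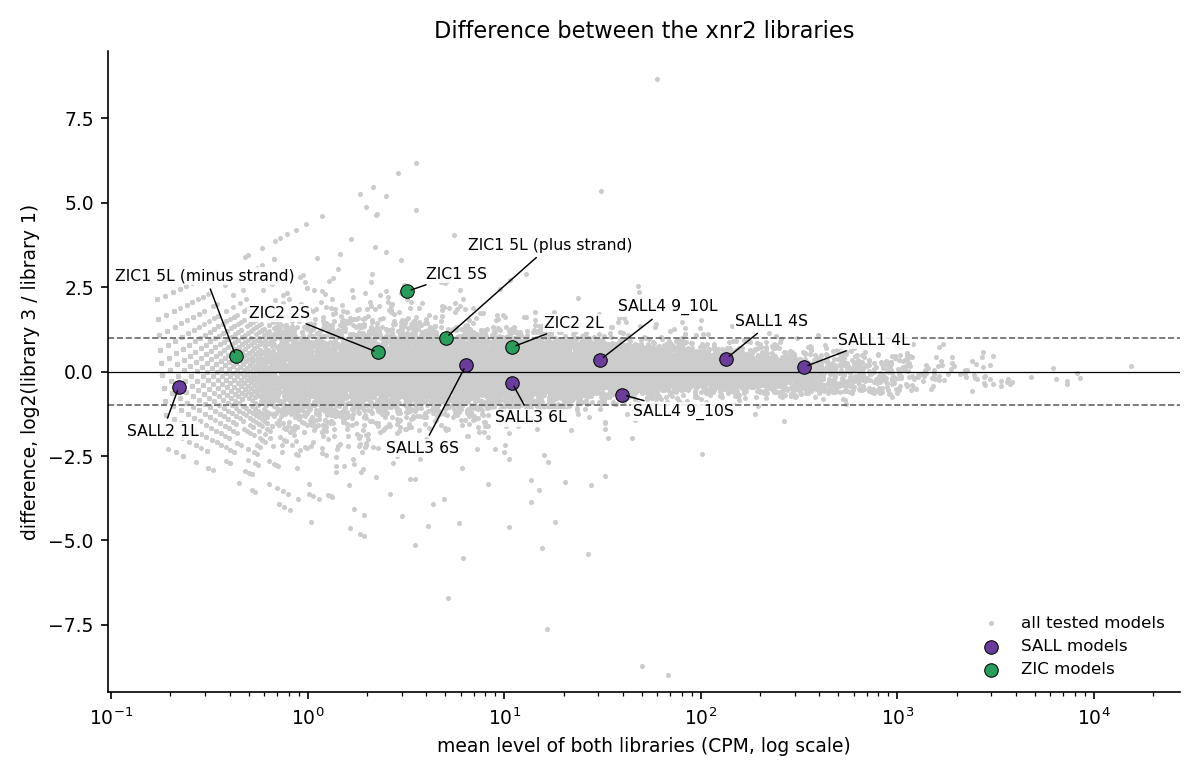
Log2 ratio of library 3 over library 1 (vertical axis) against the mean level of both libraries in CPM (log axis) for all 18820 tested models (grey) and the 12 tested SALL (purple) and ZIC (green) models, with dashed lines at a 2-fold difference either way. ZIC1 on 5S stands at 2.38 above the upper line, and SALL4 on 9_10S is the lowest of the SALL models at -0.68.

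Xenopus laevis is an allotetraploid whose chromosomes form a long (L) and a short (S) set, so that most genes can have a copy on each. Per length and in both libraries, the L copy was the higher one for SALL1, SALL3 and ZIC2, 3 of 5 pairs, against 50.2% of 5148 pairs in the table. With at least 10 reads per copy it was 3 of 4 pairs, against 50.8% of 4424. The log2 ratio of L to S was 1.90 in library 3 and 1.75 in library 1 for ZIC2, 1.18 in library 3 and 1.42 in library 1 for SALL1, and 0.34 in library 3 and 0.87 in library 1 for SALL3. Of all pairs, 78.8% had a lower mean ratio than ZIC2 and 71.7% a lower one than SALL1, so that ZIC2 lay above the middle 50% of pairs (-0.94 to 1.54) and SALL1 within it. ZIC5 had too few reads to place, with 9 on its L and 6 on its S copy.

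SALL4 had its copies at nearly equal levels per length in library 3 and its S copy higher in library 1. Its L copy gave 51.6% of SALL4 reads per length in library 3 and 34.3% in library 1. The log2 ratio of L to S was 0.091 in library 3 and -0.94 in library 1, a shift of 1.03. Fisher's exact test on the reads of both copies, adjusted over the 4424 pairs with at least 10 reads per copy, gave an adjusted p of 8.87e-26. It compares these libraries only and was added after the values were seen. That test called 37.2% of all pairs, and 8.88% of pairs had their copies in a different order in each library. By size SALL4 ranked 401 among all 4424 pairs. Among deeper pairs, 20 of 2085 with both copies at 10 CPM or more (0.959%) shifted at least as far, a minimum chosen after its values were seen, and the median shift among them was 0.19 in either direction. Summed over copies, SALL4 was closer, at 64.9 CPM in library 3 and 76.2 CPM in library 1. Among the other pairs, SALL1 shifted by -0.24 (adjusted p = 1.93e-08), SALL3 by -0.52 (adjusted p = 0.0230) and ZIC2 by 0.14 (adjusted p = 0.80). Near-identical stretches of L and S copies may have split or lost reads in the counting, and whether this differed between the libraries was not tested.

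ZIC1 could not be paired by this rule, as it has 2 models on 5L. Per length its plus strand model on 5L had 2.18 CPM per kilobase in library 3 and 1.08 in library 1, and the 5S model had 2.42 in library 3 and 0.430 in library 1. Per length the 5S model was thus slightly higher by value in library 3 and lower in library 1. By reads the plus strand model on 5L was the higher one in both libraries. It had 197 reads against 159 in library 3, and 86 against 25 in library 1. The difference in order per length was not tested.

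**Figure D4:**
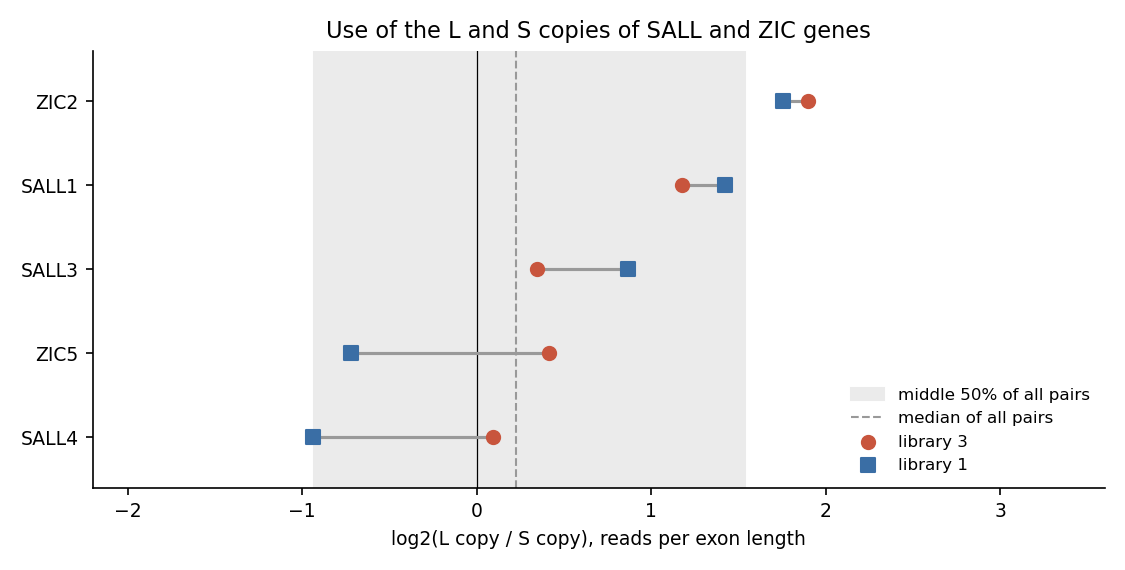
Log2 ratio of the L copy over the S copy, in reads per exon length, for the 5 SALL and ZIC genes with 1 copy of each kind, with circles for library 3 and squares for library 1, the grey band for the middle 50% of 5148 pairs and the dashed line for their median. ZIC2 stands right of the band at 1.90 and 1.75, while SALL4 lies on either side of 0 at 0.091 and -0.94.

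Genes that act with SALL and ZIC factors were followed through lists of known partners. NuRD subunits, the corepressors that SALL proteins recruit in mammals, were abundant. In both libraries 19 of 23 NuRD models were at 1 CPM or more, against 62.8% of all models. The median was 40.5 CPM against 4.53 CPM over all models. The leading symbols were the deacetylase HDAC1 at 816 CPM in library 3 and 820 CPM in library 1, the remodeller CHD4 at 384 CPM in library 3 and 320 CPM in library 1, MBD3 at 218 CPM in library 3 and 188 CPM in library 1, and MTA2 at 194 CPM in library 3 and 158 CPM in library 1. The methyl-CpG binding subunit MBD2 had 2 reads in library 3 and 2 in library 1. Between the libraries, 11 of 21 tested NuRD models were called higher and 6 lower in library 3, none by 2-fold. Of all tested models, 30.2% were called higher and 22.9% lower, and 8.13% by 2-fold in either direction.

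GLI1, GLI2 and GLI3, relatives of ZIC, each stood above the summed ZIC models, and GLIS2 and GLIS3 below them. Over its copies GLI2, an effector of Hedgehog signals, reached 149 CPM in library 3 and 87.3 CPM in library 1, GLI3, largely a repressor, 94.3 CPM in library 3 and 69.4 CPM in library 1, GLI1 38.1 CPM in library 3 and 32.8 CPM in library 1, and GLIS2 13.9 CPM in library 3 and 9.85 CPM in library 1. All 8 tested GLI and GLIS models were called higher in library 3, 2 of them by at least 2-fold, with a median log2 ratio of 0.60. Over all tested models, 30.2% were called higher and 4.05% higher by at least 2-fold. GLIS3 on Scaffold58, picked after its values were seen, had 252 reads in library 3 and 34 in library 1. In the Hedgehog list, 8 of 14 tested models were called higher and none lower in library 3, against 30.2% and 22.9% of all tested models, with a median of 0.33. The transducer SMO led it at 389 CPM in library 3 and 335 CPM in library 1. The ligand DHH had 67.9 CPM in library 3 and 59.4 CPM in library 1, and the receptor PTCH1 had 45.8 CPM in library 3 and 33.5 CPM in library 1. Both models of the ligand IHH had under 10 reads.

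Factors of the neural plate border and crest, where ZIC1 acts in Xenopus, differed widely in level. A level of 1 CPM in both libraries was met by 23 of 31 models, against 62.8% of all models. MYC led at 465 CPM in library 3 and 363 CPM in library 1. The models named SNAI2 followed at 306 CPM in library 3 and 257 CPM in library 1. Most of that came from models on 9_10L (159 and 134 CPM in libraries 3 and 1) and 9_10S (136 and 114 CPM). Those on 6L (5.54 and 6.07 CPM) and 6S (5.78 and 3.09 CPM) were low. No model was named SNAI1, and whether the 9_10 models are copies of SNAI2 was not tested. FOXD3 had 134 CPM in library 3 and 85.4 CPM in library 1. MSX1 had 63.4 ± 16.5 CPM (SD, n = 2), with 1512 reads in library 3 and 1941 in library 1. PAX3, the partner of ZIC1 and picked for that role, had 17.8 CPM in library 3 and 17.5 CPM in library 1, and neither of its copies was called between the libraries. Both copies of the crest factor SOX10 had 0 reads. In library 3, 13 of 26 tested models were called higher and 3 lower, none by 2-fold. The shares of all tested models were 30.2% and 22.9%, and 8.13% by 2-fold in either direction.

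Among neural plate genes, 26 of 52 models were at 1 CPM or more in each library, against 62.8% of all models. The median level of the list was 1.53 CPM. The list was led by CDX4, which is also a mesoderm factor, at 692 CPM in library 3 and 777 CPM in library 1, TUBB2B at 549 CPM in library 3 and 517 CPM in library 1, the neural-promoting geminin GMNN at 126 CPM in library 3 and 163 CPM in library 1, and GLI3. Most of the TUBB2B level came from models on 8L (289 and 260 CPM in libraries 3 and 1) and Scaffold20 (239 and 237 CPM). Those on 6L (7.63 and 7.11 CPM) and 6S (0.787 and 0.232 CPM) were low. Whether all 6 models of that name are copies of TUBB2B was not tested. SIX3 and RAX, factors of the forebrain and eye field, EN2 of the midbrain-hindbrain boundary, SOX1 and NEUROG1 had under 10 reads in every model. Between the libraries 15 of 39 tested models were called higher and 7 lower in library 3, of which 5 higher and 4 lower by at least 2-fold. Of all tested models, 30.2% were called higher and 22.9% lower, and by at least 2-fold 4.05% higher and 4.09% lower. The 4 neural plate markers found in the table, OTX2, NCAM1, SOX3 and PAX6, summed to 32.3 CPM in library 3 and 29.3 CPM in library 1. Behind these sums, 4 of 14 tested marker models were called higher and 4 lower in library 3, beside the shares of all models just given. By at least 2-fold, 2 were higher and 4 lower, so that opposite differences between models cancelled in part. Apart from NCAM1 on 7L (higher, log2 ratio 1.38) and PAX6 on 4S (lower, -1.71), these were all models named OTX2. That symbol is shared by 8 models, and whether each is a copy of OTX2 was not tested. The same models are part of the longer neural plate list. Opposite moves of the neural plate markers themselves can therefore not be read from these counts. The ZIC sum was 1.96 times as high in library 3. Notochord markers (CHRD, T and SHH) summed to 767 CPM in library 3 and 417 CPM in library 1. All 6 of their models were called higher in library 3 (30.2% of all tested models were). Neural crest markers (SNAI2, FOXD3, SOX8 and SOX10) summed to 503 CPM in library 3 and 388 CPM in library 1. Most of this came from the models named SNAI2 on 9_10L (159 and 134 CPM in libraries 3 and 1) and 9_10S (136 and 114 CPM). Whether these are copies of SNAI2 was not tested, and SOX10 had 0 reads. The epidermal sum went the other way, as given above. The part of these cell types in the ZIC difference was not tested.

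POU5F1 was picked for its role, since Xenopus SALL factors repress pou5f3 genes. Which of the pou5f3 genes a model stands for cannot be read from this human symbol. The model on 8L had 9.30 CPM in library 3 and 3.55 CPM in library 1 (log2 ratio 1.36, adjusted p = 1.95e-16), and the model on 8S had 5.10 CPM in library 3 and 1.78 CPM in library 1 (1.47, adjusted p = 1.70e-10). In that list of POU and germ-cell factors, 10 of 15 models reached 1 CPM in each library, against 62.8% of all models. In library 3, 4 of 14 tested models of the list were called higher and 3 lower, against 30.2% and 22.9% of all tested models. The leading symbols of the list were the RNA-binding protein LIN28A at 544 CPM in library 3 and 548 CPM in library 1, PRDM1 at 219 CPM in library 3 and 213 CPM in library 1, LIN28B at 81.8 CPM in library 3 and 69.2 CPM in library 1, and POU2F1 at 47.1 CPM in library 3 and 48.0 CPM in library 1.

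**Figure D5:**
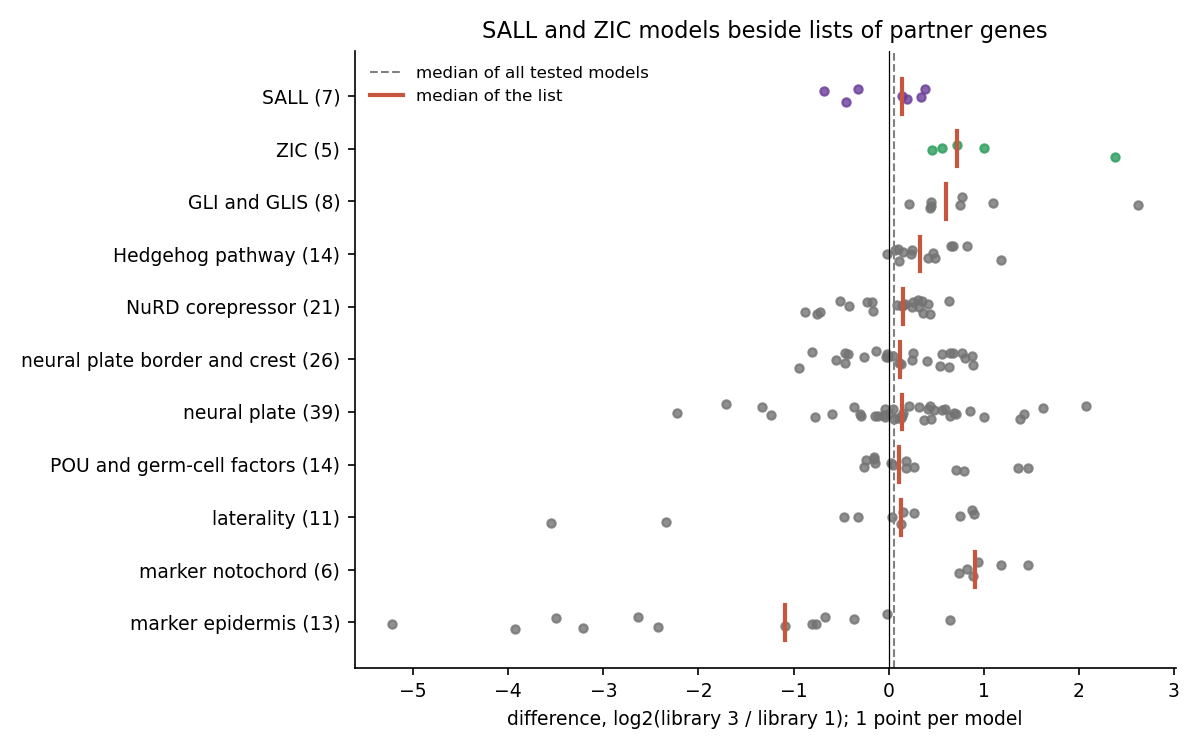
Log2 ratio of library 3 over library 1 for each tested model of the sets shown (number of tested models in brackets). These are the SALL and ZIC genes, the partner lists and the notochord and epidermal marker lists. The other marker lists are not drawn. A red bar marks each list's median and a dashed line the median of all tested models (0.052). ZIC models lie at or above 0.45 and SALL models between -0.68 and 0.38, GLI and GLIS models are all above 0, and epidermal markers have a median of -1.09.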

How the data were processed

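The authors deposited 1 table with a scaled signal per gene model. Per the file headers, HOMER counted exon reads on Mayball gene models of X. laevis assembly version 9.1 and rescaled each library by simple normalization. Per the submitters' processing notes, FastQC, STAR 2.4.0k, HOMER and edgeR were used. Per the labels' protocols, libraries were polyA-selected with a TruSeq kit, while mapping parameters are not given in the sources used. Dividing the deposited signal by the worth of 1 read (0.715 in library 3, 0.808 in library 1) gave whole reads, within 0.05, for 100% of nonzero values. The table had 0 value columns of other samples.

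CPM are on the total of recovered reads. Log2 ratios add 0.1 CPM, and L to S ratios add 0.5 reads per copy. Exact tests used SciPy 1.17.1, and size factors edgeR 4.0.16 (TMM) and DESeq2 1.42.0. With 1 group, no edgeR contrast could be fitted. The binomial test was tested on simulated reads with known changes and counting error alone. The wider spread of these libraries was not part of that simulation. Alternatives covered scaling, pseudocount, read minimum, fold and level minimum, length and single libraries.

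Members and lists were chosen with earlier results of these data known. All member models are given values. Of a list, the 4 highest symbols and those with under 10 reads in every model are named. 1 Hedgehog list result is not reported here. The laterality list was computed too, with 4 of 11 tested models called higher and 3 lower in library 3 (median log2 ratio 0.13). Of all tested models, 30.2% were called higher and 22.9% lower. The laterality list was led by GDF3, DAND5, NODAL and LEFTY2 at 230, 174, 86.6 and 5.31 CPM (mean of the libraries). NODAL sums 10 models, and whether reads of the injected xnr2 RNA are among them was not tested. Endoderm markers summed to 154 CPM in library 3 and 182 CPM in library 1, with both HHEX models at 0 reads. Multiciliated markers summed to 4.04 CPM in library 3 and 5.87 CPM in library 1, with at most 3 reads for a MCIDAS model. Of the marker symbols, SOX2 and NOTO had no model by that name.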

Additional observations from a re-analysis of the deposited data

How the results depend on the processing

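TMM and DESeq2 size factors kept the direction of all 12 tested SALL and ZIC models, as did pseudocounts of 0.01 and 1 and a minimum of 1 read. With 100 reads as the minimum, this held for the 10 models that have them. The call of ZIC2 on 2S was lost with TMM, DESeq2 size factors or a minimum of 1 read (adjusted p = 0.0876, 0.0732 and 0.0573), which left 8 called models in place of 9. Other calls kept their side of the threshold. With the median of the length class taken off, an alternative chosen after seeing the data, SALL1 on 4L stood at -0.069 and SALL3 on 6S at -0.013. At 10 CPM 4 models remained in place of 9 at 1 CPM, and a minimum of 1.5-fold called 4 models in place of 1. Per kilobase the SALL sum was 112.5 and the ZIC sum 7.40. Single libraries gave 530 to 584 CPM for SALL, 15.0 to 29.3 CPM for ZIC, 9 to 10 models at 1 CPM and 3 to 5 pairs with the higher L copy. The L to S ratio of SALL4 ranged from -0.94 without library 3 to 0.091 without library 1. That of ZIC5 ranged from -0.72 without library 3 to 0.41 without library 1, and the cause of that range was not tested. Without regard to length it was 0.57 in place of -0.15, as the exons measure 3611 bp on 2L and 2188 bp on 2S. No paired analysis was possible because the libraries form 1 group. Depth limits ZIC5, with 15 reads in all, SALL2, with 12, and the minus strand ZIC1 model, with 24.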
